A study of Homo sapiens with 6 samples.

Results

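Among the mature miRNAs printed on the array are entries whose sequences resemble pieces of abundant structural RNAs, and 9 such entries of 2549 human miRNAs were followed here in exosomes of H9 cells. They were chosen by name: hsa-miR-1246, hsa-miR-1290, hsa-miR-7641, hsa-miR-1260a, hsa-miR-1260b, hsa-miR-7975, hsa-miR-7977, hsa-miR-4286 and hsa-miR-5100. No measured value entered the choice rule. H9 is an established human ES cell line, held feeder-free in TeSR-E8 medium and moved from Vitronectin to Matrigel, on which colonies of 2 kinds appeared. Substate 1 was the typical colony with a strongly stained pluripotency epitope, and substate 2 the loosely packed colony with vimentin staining. Exosomes, small vesicles shed into the medium, were precipitated with ExoQuick-TC, and their RNA was labelled with Cy3 and hybridised to Agilent miRNA arrays. Each of 3 experiments gave 1 array per substate. Substate 1 came from passages 41, 46 and 50 and substate 2 from passages 52, 61 and 65, so that substate and later passage cannot be told apart. The input within an experiment was equal for both substates, at 72.4, 100 and 51.4 ng for experiments 1 to 3. Experiment 1 lay on slide 1 and was read with software version 12.0.3.2, whereas experiments 2 and 3 lay on slide 2 and were read with version 11.5.1.1. All arrays represent a single cell line. The labels do not say whether the experiments were separate cultures, so the spread between experiments may be partly technical.

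A miRNA is a short RNA that is cut from a hairpin precursor and guides an Argonaute protein to target transcripts, mainly through its seed near the 5′ end. Some catalogued miRNAs also match stretches of RNAs that every cell makes in bulk, namely U2 snRNA of the spliceosome, 5S rRNA of the ribosome, or tRNAs, whose mature 3′ end is the added triplet CCA. An array probe reports any labelled RNA with a matching end, whichever precursor gave rise to it. In the grouping used here miR-1246 and miR-1290 are U2 snRNA-like, miR-7641 is 5S rRNA-like, and miR-1260a, miR-1260b, miR-7975, miR-7977, miR-4286 and miR-5100 are tRNA-like. This grouping is background knowledge, and the placement of miR-4286 and miR-5100 with the tRNA-like entries is its least sure part. The entries were not matched to structural RNA sequences, so their origin was not tested.

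Mature sequences from RefSeq (GRCh38.p14) were found for 7 of the 9 entries and are shown because the groups are defined by sequence. Letters run 5′ to 3′, and capitals mark the seed, bases 2 to 8.
hsa-miR-1246: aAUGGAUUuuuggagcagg
hsa-miR-1290: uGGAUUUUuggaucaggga
hsa-miR-1260a: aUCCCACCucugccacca
hsa-miR-1260b: aUCCCACCacugccaccau
hsa-miR-7975: aUCCUAGUcacggcacca
hsa-miR-7977: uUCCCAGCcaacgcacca
hsa-miR-5100: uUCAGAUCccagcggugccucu
The annotated loci are scattered. miR-1246 lies at chr2:176601024-176601042 on the minus strand, miR-5100 at chr10:42997630-42997651 on the plus strand, miR-7975 at chr19:55123225-55123242 on the minus strand and miR-7977 at chr3:176515103-176515120 on the plus strand, and no other RefSeq gene overlaps any of these. miR-1290 lies at chr1:18897078-18897096 on the minus strand within the gene span of ALDH4A1. miR-1260a lies at chr14:77266231-77266248 on the plus strand within that of NGB, and miR-1260b at chr11:96341447-96341465 on the plus strand within that of MAML2. Exon or intron was not resolved.

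The U2 snRNA-like pair had different seeds but a common run of 12 bases, uggauuuuugga, at positions 3 to 14 of miR-1246 and 1 to 12 of miR-1290. miR-1260a and miR-1260b had the same seed and the same base at 17 of 18 positions. They differed by U9A, counted from the 5′ base of miR-1260a, and by 1 further base at the 3′ end of miR-1260b. No other human miRNA on the array with a sequence in the table had the seed of any of these 7 entries. miR-7975 and miR-7977 matched at 13 of 18 positions and ended in the same 6 bases, gcacca. The triplet CCA closed 3 of the 7 sequences, those of miR-1260a, miR-7975 and miR-7977, and it closed 42 of the 2248 human mature sequences that could be matched (1.87%). In miR-1260b the triplet stood 1 base before the end.

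Between 310 and 594 human miRNAs were detected per array, and 289 were detected on all 6. The summed signal of all human miRNAs was lower in substate 2 in every experiment, by −0.84, −0.40 and −0.67 on the log2 scale. It was between 38819 and 89011 intensity units in substate 1 and between 24349 and 53536 in substate 2. Of 8 miRNAs that mark pluripotent cells, 5 from the cluster of miR-302 and miR-367 were detected on all arrays, at 4.30% to 6.47% of the signal for the whole list. The others were nearly absent. miR-371a-3p was detected on 2 arrays, at 1.45 and 0.845 units, miR-373-3p on 1, at 1.16 units, and miR-372-3p on none. Of 7 markers of other cells, 5 were detected on no array, among them let-7a-5p and miR-451a. The red blood cell miR-486-5p was detected on 3 arrays, and the neural miR-124-3p on all 6, at 3.23 to 9.15 units. The whole list made up 0.00929% to 0.0130% of the signal in substate 1 and 0.0127% to 0.0171% in substate 2.

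All 9 entries were detected on all 6 arrays, and together they took up a sizeable part of the exosome signal. Their share of the summed signal was 17.5%, 6.69% and 12.2% in substate 1 and 10.1%, 14.3% and 10.5% in substate 2, in the order of the experiments. A share of this kind is of brightness and not of molecules, because probes respond differently. The share was smaller in substate 2 by −7.39 percentage points in experiment 1, larger by 7.56 in experiment 2, and smaller by −1.77 in experiment 3. The mean difference was −0.532 ± 7.55 percentage points (SD, n = 3 experiments). This mean is much smaller than the spread between experiments, and the range of substate 2 fell inside that of substate 1. No p-value is given, since 3 pairs cannot go below 0.25 in an exact sign-flip test.

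**Figure D1:**
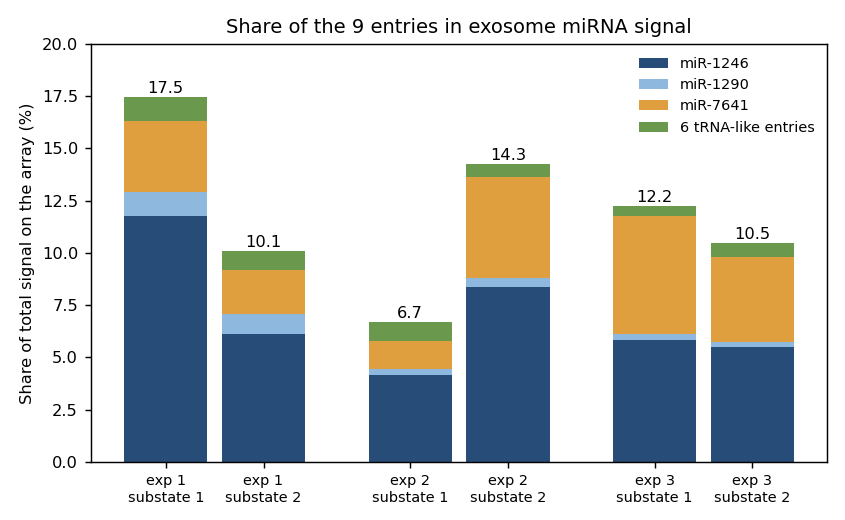
Stacked bars give the share of the 9 entries in the summed signal of all human miRNAs (%) on each of the 6 arrays, paired by experiment, with miR-1246, miR-1290, miR-7641 and the sum of the 6 tRNA-like entries in separate colours. The total ran from 6.69% to 17.5%, the substate with the taller bar was not the same in all experiments, and miR-1246 with miR-7641 filled most of each bar.

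miR-1246 and miR-7641 alone made up 81.4% to 93.7% of the signal of the 9 entries. The U2 snRNA-like pair held 12.9%, 4.45% and 6.13% of all signal in substate 1 and 7.09%, 8.80% and 5.73% in substate 2. The 5S rRNA-like miR-7641 held 3.37%, 1.35% and 5.64%, against 2.07%, 4.81% and 4.06%. The 6 tRNA-like entries together never passed 1.17%. The brightest entry of every array was hsa-miR-8069, which is no member and took 33.4% to 52.3% of the signal, so that it weighs on every share. With miR-8069 left out of the denominator, the 9 entries held 28.7%, 12.4% and 21.2% in substate 1 and 21.1%, 21.4% and 17.0% in substate 2. The differences then were −7.60, 8.99 and −4.24 percentage points, in the same directions as before.

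For the comparison of single entries, each total signal was divided by its array's 99th percentile, and log2 was taken. For an entry, the total signal adds up what its probes gave after background subtraction. Probe values at or under 3 times their error were left out of it. Values below 0.431% of the percentile were raised to that floor, which none of the 9 entries reached. limma with experiment as a block was fitted across the 474 miRNAs detected on at least 3 arrays, and p-values were adjusted over all of them by the Benjamini-Hochberg method. A call needed an adjusted p under 0.05 and a difference of at least 2-fold. Each difference below is the log2 value of substate 2 minus that of substate 1. In vesicles pooled from a culture, fewer vesicles carrying an RNA and less of it per vesicle cannot be told apart.

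miR-1246, the U2 snRNA-like entry reported in the vesicles and body fluids of many sources, ranked 2 or 3 among all miRNAs on every array. Its total signal was 10454, 2936 and 2260 units in substate 1 and 3036, 4466 and 1339 units in substate 2. In these units the array of substate 1 in experiment 1 stood far above the others. After scaling it was still the highest, at 4.46, with substate 2 of experiment 2 next at 3.99. The scaled differences were −0.96, 0.94 and −0.23, so that the substates overlapped. Their mean was −0.08 (95% interval −1.53 to 1.36; limma, adjusted p = 0.938), and the interval leaves room for more than a 2-fold difference either way. Without experiment 1 the mean was 0.35.

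miR-1290, the partner with the common run of bases, was dimmer. Its total signal was 1050, 204 and 120 units in substate 1 and 480, 246 and 57.0 in substate 2. Both arrays of experiment 1 were above the other 4, also after scaling. The differences were −0.31, 0.61 and −0.55, with a mean of −0.08 (95% interval −1.01 to 0.85; limma, adjusted p = 0.890). In each experiment miR-1290 and miR-1246 thus differed in the same direction.

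miR-7641, the 5S rRNA-like entry, had the widest spread of substate differences over the experiments, with an SD of 1.41 log2 units. Its total signal was 2999, 956 and 2189 units in substate 1 and 1028, 2575 and 987 in substate 2. Substate 2 was the brighter array in experiment 2 and the dimmer in the others. The scaled differences were −0.72, 1.76 and −0.62, and their mean was 0.14 (95% interval −1.96 to 2.24; limma, adjusted p = 0.927). Its rank lay between 3 and 8. Without experiment 2 the mean turned to −0.67.

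**Figure D2:**
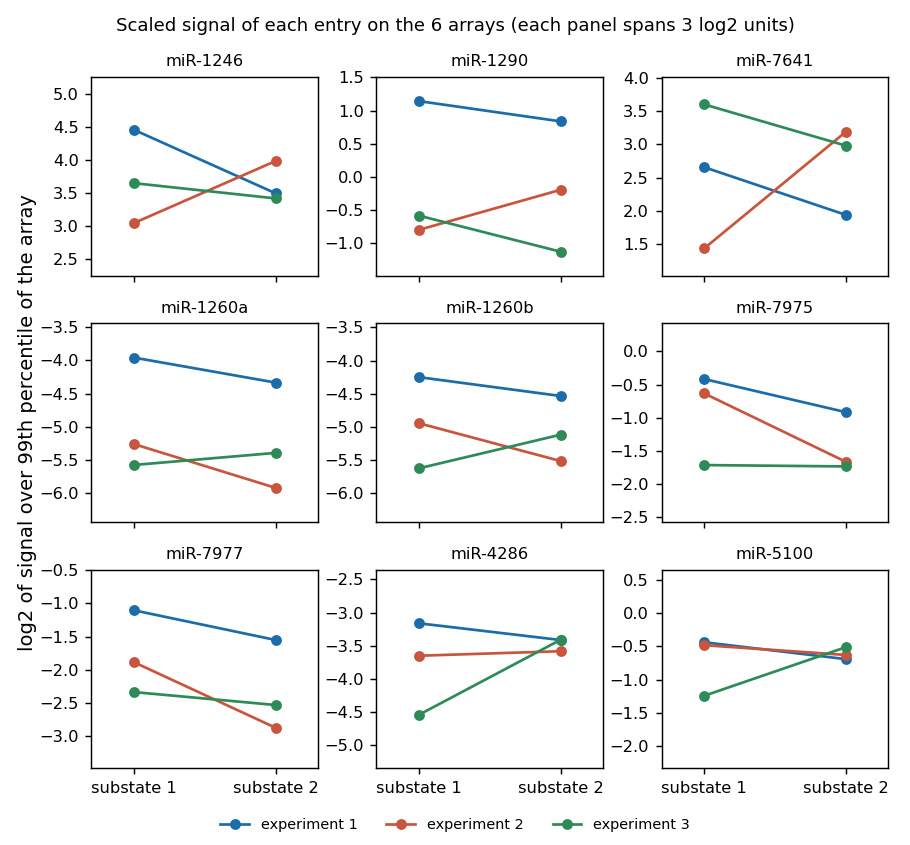
Each panel shows 1 entry, with the log2 of its signal over the array's 99th percentile in substate 1 and substate 2 and a line joining the arrays of an experiment. For miR-1246, miR-1290 and miR-7641 the line of experiment 2 climbs while the others descend, and for miR-7975 and miR-7977 all 3 lines descend.

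The tRNA-like entries with a CCA end were lower in substate 2 in most experiments, by amounts that did not pass the test. miR-7977 had total signals of 221, 96.0 and 35.6 units in substate 1 and 91.6, 38.3 and 21.6 in substate 2. The scaled values were −1.10, −1.89 and −2.34 in substate 1 and −1.55, −2.88 and −2.53 in substate 2. Within every experiment substate 2 was the lower array, although the ranges of the substates overlapped.

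The differences of miR-7977 were −0.45, −0.99 and −0.20, with a mean of −0.55 ± 0.41 (SD, n = 3 experiments), and limma gave an adjusted p of 0.244 and a 95% interval of −1.19 to 0.10. Its near relative miR-7975 had 356, 229 and 54.7 units in substate 1 and 142, 88.7 and 37.5 in substate 2. The scaled differences were −0.50, −1.03 and −0.02, with a mean of −0.52 ± 0.51 (SD, n = 3 experiments; limma, adjusted p = 0.284; 95% interval −1.31 to 0.27). In experiment 3 the difference of miR-7975 was close to 0, and the mean thus rests on the other experiments. Without experiment 2 the means of miR-7975 and miR-7977 were −0.26 and −0.32.

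Before scaling, with equal amounts of RNA labelled, miR-7975 differed by −1.32, −1.37 and −0.55 and miR-7977 by −1.27, −1.32 and −0.72. On that scale the median over the 289 miRNAs detected on all arrays was −0.91, −0.35 and −0.45. The summed signal of experiment 3 differed by −0.67, which is more than the difference of miR-7975 in that experiment.

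miR-1260a, which also ends in CCA, and its near copy miR-1260b were the dimmest of the 9. The total signal of miR-1260a was 30.6, 9.25 and 3.76 units in substate 1 and 13.3, 4.64 and 2.97 in substate 2. That of miR-1260b was 25.0, 11.5 and 3.64 units, against 11.6, 6.15 and 3.60. In both, scaled substate 2 was below substate 1 in experiments 1 and 2 and above it in experiment 3. The differences were −0.38, −0.66 and 0.18 for miR-1260a (mean −0.29, and −0.0974 without experiment 2; limma, adjusted p = 0.425) and −0.28, −0.57 and 0.51 for miR-1260b (mean −0.12; limma, adjusted p = 0.810). With 17 of 18 bases alike, an RNA of one may be read by the probes of the other, which was not tested.

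miR-4286 and miR-5100, placed with the tRNA-like entries, had another pattern. The total signal of miR-4286 was 53.1, 28.3 and 7.71 units in substate 1 and 25.2, 23.5 and 11.8 in substate 2. That of miR-5100 was 352, 254 and 75.9 units, against 166, 182 and 87.8. For both entries the 3 scaled arrays of substate 2 lay close together, and the array of substate 1 in experiment 3 was the lowest of all 6. The differences were −0.25, 0.07 and 1.13 for miR-4286 (mean 0.32; limma, adjusted p = 0.569) and −0.25, −0.15 and 0.73 for miR-5100 (mean 0.11; limma, adjusted p = 0.813). Without experiment 3 the means were −0.09 and −0.20.

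**Figure D3:**
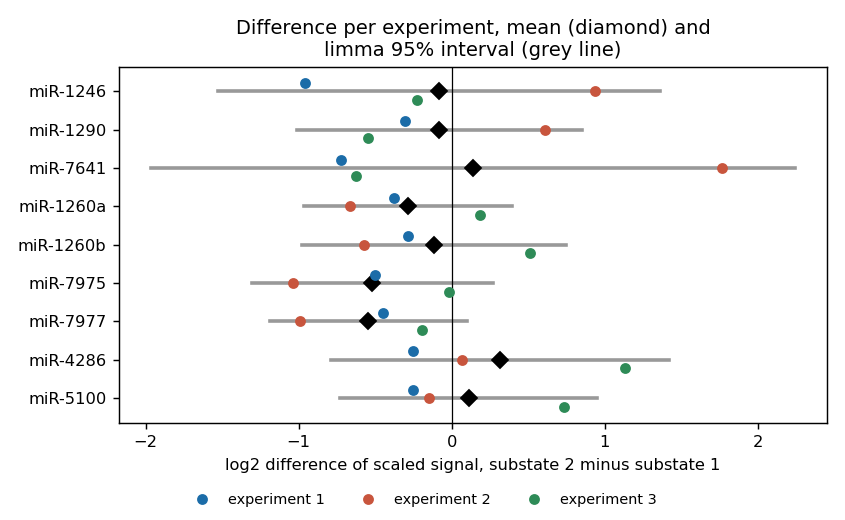
For each entry, coloured points give the log2 difference of scaled signal, substate 2 minus substate 1, in experiments 1 to 3, the black diamond their mean and the grey line the 95% interval of limma. All 9 intervals hold 0, that of miR-7641 is the widest (−1.96 to 2.24), and only miR-7975 and miR-7977 have all 3 points on one side.

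None of the 9 entries was called, as was true of all tested miRNAs (0 of 474, 0%). At an unadjusted p under 0.05 limma had 0 of the 9 entries, against 109 of 474 tested miRNAs (23.0%). The smallest unadjusted p among the entries was that of miR-7977, at 0.0746 (limma, 6 arrays). Entries lower in substate 2 in all 3 experiments numbered 2 of 9 (22.2%), against 23.4% of all tested miRNAs, and those higher in all 3 numbered 0 of 9, against 21.1%. The median difference of the 9 entries was −0.08, beside −0.01 for all tested miRNAs. The share lower in all 3 experiments is near that of the whole array.

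The scanner software states an error for each total signal, which was 7.49% to 14.0% of the value for the 9 entries. The substate differences of an entry varied between experiments with an SD of 0.41 to 1.41 log2 units. Experiment 1 had the highest mean scaled signal for 7 of the 9 entries, namely all but miR-5100 and miR-7641. Among the 289 miRNAs detected on all arrays it was the highest for 93 (32.2%). The range of experiment means had a median of 1.00 log2 units over the 9 entries, beside 0.49 over the 289. It was widest for miR-1290, with means of 0.99, −0.50 and −0.86 in experiments 1 to 3, and for miR-1260a, with −4.15, −5.59 and −5.49. The slide, the software version and experiment 1 itself cannot be told apart.

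Each miRNA was read by several probes, which differ in how much of the target they pair with. The 9 entries had 19 probes, 3 for miR-7641 and 2 for each of the others, with 20 spots per entry on an array. Of their 1080 spots over the 6 arrays 943 were well above background, 1040 were positive and significant, and 0 were saturated. All spots of miR-1246, miR-5100, miR-7641, miR-7975 and miR-7977 were well above background, whereas 60.0% of those of miR-1260a and 64.2% of those of miR-1260b were. In all 54 combinations of entry and array the total signal equalled the sum of the probes over 3 times their error, within 0.1%, and 10 of 114 probe values were left out of a total in this way. These belonged to the dim probes of miR-1260a, miR-1260b, miR-1290 and miR-4286. For miR-4286 in experiment 3 the dim probe was left out in substate 1 only, and for miR-1260b in experiment 2 in substate 2 only. There the brighter probes alone differed by 0.99 and −0.45, beside 1.13 and −0.57 for the totals.

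Both probes of miR-7975 gave nearly the same differences, at most 0.05 apart, and those of miR-7977 at most 0.13. Both probes of either entry were lower in substate 2 in all 3 experiments. For miR-1246, probe 2 carried 94.6% to 99.2% of the signal. In experiment 1 it was lower in substate 2 by −1.01, while probe 1 was higher by 0.40, a gap of 1.41. All 20 spots of miR-1246 on each array were well above background, and probe 1 carried 0.757% to 5.37% of the signal. The probes of miR-1290 also had opposite signs in experiment 1, at 0.40 for probe 1 and −0.32 for probe 2, which carried 98.1% to 99.4% of the signal.

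The 3 probes of miR-7641 agreed in direction in every experiment but not in size. In experiment 2 they were higher by 1.00, 1.54 and 1.80, from the dimmest to the brightest. Over all entries the probes had the same sign in 24 of 27 combinations of entry and experiment. The other 3 were miR-1246 and miR-1290 in experiment 1, and miR-1260a in experiment 3, where its dim probe had no positive signal in substate 2. What lies behind the disagreement of the miR-1246 probes was not tested.

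**Figure D4:**
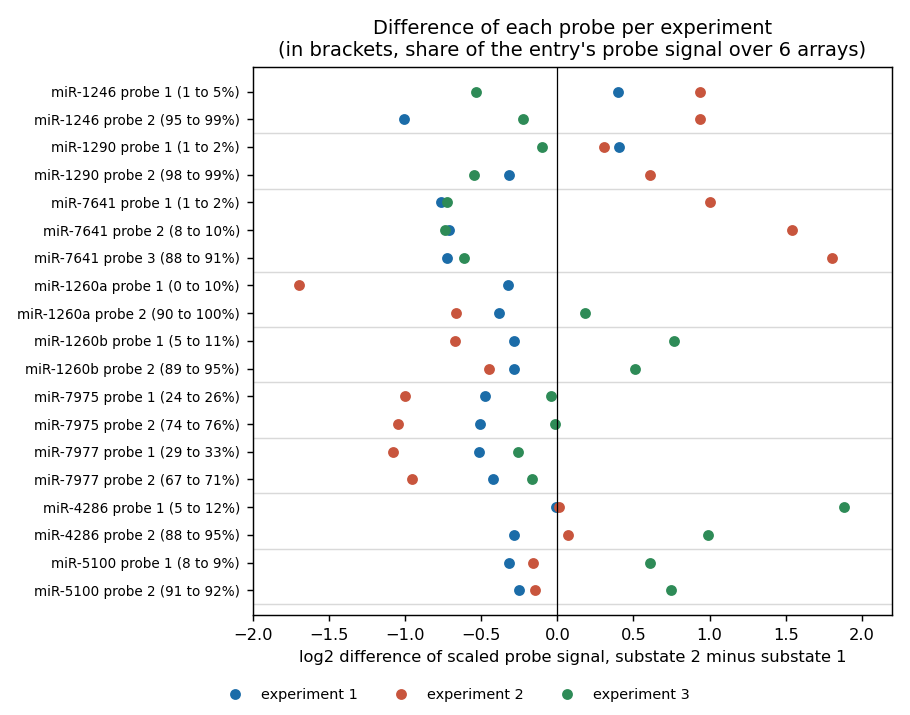
Points give the log2 difference of scaled probe signal, substate 2 minus substate 1, for each of 19 probes in experiments 1 to 3, with the probe's range of shares of the entry's signal in brackets, and no point where a probe had no positive signal. The paired probes of miR-7975 and miR-7977 overlay each other closely, and the blue points of the 2 probes of miR-1246 stand on opposite sides of 0.

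Ratios between entries on the same array need no scaling. Their size depends on the probes, and only their spread over the 6 arrays is read here. Over 36 pairs the SD of the log2 ratio ran from 0.23 to 1.34. The 10 lowest were all among the 15 pairs of tRNA-like entries, whose median SD was 0.43, a count that includes the less surely placed miR-4286 and miR-5100. This ranks the 36 pairs among themselves only. No SD for pairs of other miRNAs is given, so whether 0.43 is low for the array is not known. The steadiest was miR-4286 to miR-5100, with ratios between 0.102 and 0.151. The next was miR-1260a to miR-7977 with an SD of 0.24. miR-7975 to miR-7977 stayed between 1.54 and 2.38, and miR-1260a to miR-1260b between 0.755 and 1.23.

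The 7 highest SDs all belonged to pairs with miR-7641, whose 8 pairs had a median of 1.25. miR-7641 to miR-7975 ran from 4.18 to 40.0, and miR-7641 was nearest to miR-1246, with an SD of 0.72. The U2 snRNA-like pair itself was not steady, as the ratio of miR-1246 to miR-1290 ran from 6.33 to 23.5, with an SD of 0.70. These spreads describe 6 arrays that share experiments, and they carry no test.

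The ratio differed between substates in one direction in all 3 experiments for 14 of the 15 pairs of tRNA-like entries, the exception being miR-7975 to miR-7977, and for 0 of the other 21 pairs. Over all 36 pairs of the 9 entries the share was 38.9%, beside 56.7% over all 41616 pairs of miRNAs detected on all arrays. Pairs share entries and are not independent, and this count was made after the values were seen and was not tested. For example, the ratio of miR-5100 to miR-7975 was higher in substate 2 by 0.25, 0.89 and 0.76 log2 units, and that of miR-4286 to miR-7975 by 0.25, 1.10 and 1.15. That of miR-1260b to miR-7977 was higher by 0.16, 0.42 and 0.70.

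**Figure D5:**
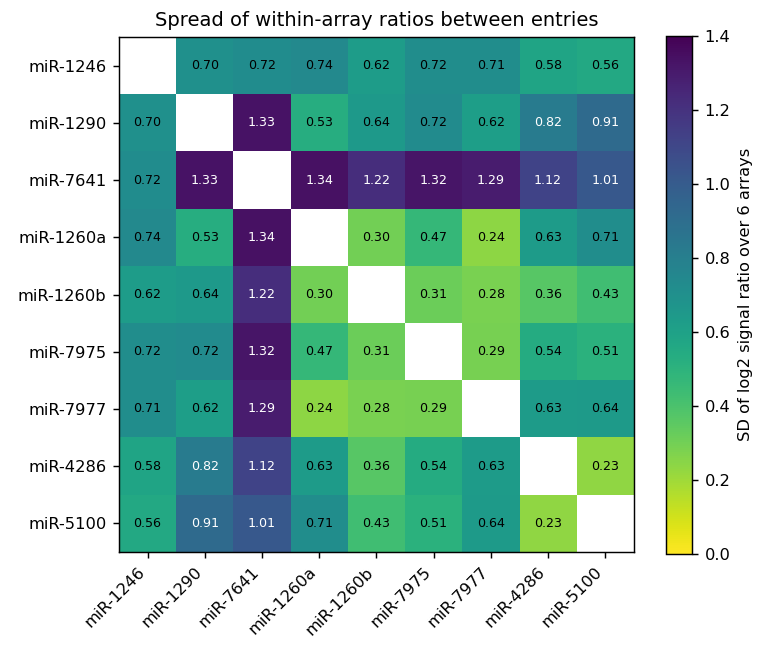
The matrix gives, for each pair of entries, the SD over the 6 arrays of the log2 ratio of their total signals, from light (steady) to dark (variable). The lowest values lie in the block of the tRNA-like entries, down to 0.23 for miR-4286 with miR-5100, and the row and column of miR-7641 are the darkest, up to 1.34.

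The cluster of miR-302 and miR-367, a hallmark of human pluripotent cells with 8 of its 10 names detected, gave a reference within each array. The share of the cluster was 6.72%, 4.62% and 6.87% in substate 1 and 4.70%, 6.71% and 5.40% in substate 2, with differences of −2.02, 2.09 and −1.47 percentage points. The share of the 9 entries thus differed in the same direction as that of the cluster in every experiment. Relative to the cluster, the 9 entries had a summed signal of 2.60, 1.45 and 1.78 in substate 1 and 2.14, 2.12 and 1.94 in substate 2. The log2 differences of this ratio were −0.28, 0.55 and 0.12, a mean of 0.13 ± 0.42 (SD, n = 3 experiments), which is within the spread. For the tRNA-like entries the same differences were 0.15, −1.01 and 0.89.

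Other names tied to structural RNA were much dimmer. Of 11 from snoRNAs and the rDNA spacer, 6 were detected on at least 1 array and 5 were tested, and together they held at most 0.216% of the signal. limma called 0 of the 5, and 3 were lower in substate 2 in all experiments, against 23.4% of all tested miRNAs. Among these, miR-6724-5p of the rDNA spacer had scaled values of −1.88, −1.58 and −1.26 in substate 1 and −2.39, −1.92 and −1.74 in substate 2. Its differences were −0.51, −0.34 and −0.48 (mean −0.44; limma, unadjusted p = 0.0123, adjusted p = 0.167). miR-3651, from a snoRNA, differed by a mean of −1.02 (limma, adjusted p = 0.244), with 2 of its substate 2 values at the floor. miR-664b-5p, the remaining entry lower in all experiments, also had 2 substate 2 values at the floor. The count of 3 thus rests partly on floored values.

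Few of the other names with a CCA end were measurable. Of the 39 matched miRNAs that end in CCA and are not among the 9 entries, 7 were detected on at least 1 array and 3 on all 6 (7.69%), beside 10.8% of all 2248 matched miRNAs. The 3 detected on all 6 arrays did not differ in a common direction. miR-3162-3p was higher in substate 2 in all experiments, by 0.42, 1.97 and 0.55 (mean 0.98; limma, adjusted p = 0.274). Its substate 1 value in experiment 2, −7.80, lay close to the floor of −7.86. miR-572 was lower in all experiments, by −0.23, −0.29 and −0.20 (mean −0.24; limma, adjusted p = 0.215), as were miR-7975 and miR-7977. miR-4484 differed by −1.14, 0.11 and 0.14 (mean −0.30; limma, adjusted p = 0.598).

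The mean scaled signal of the 9 entries was −0.56, −1.47 and −1.60 in substate 1 and −1.02, −1.47 and −1.49 in substate 2. Over the 6 arrays the miRNAs most like this mean, among 280 others detected on all arrays, were miR-3667-5p (r = 0.98), miR-5703 (0.93), miR-630 (0.88), miR-6086 (0.88) and miR-513a-5p (0.87). These are Pearson correlations given as a description, since the arrays share experiments and slides. All 5 had their highest values in experiment 1, as had the mean of the entries, but they were chosen for following that mean over these arrays. The likeness therefore follows from the choice and is no separate result. The substate differences of the 5 lay between −0.51 for miR-6086 and −0.08 for miR-630, and none was called.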

How the data were processed

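Exosome miRNAs of 3 experiments, with 1 array for each substate, were analysed from the spot intensity values deposited by the authors, as Agilent Feature Extraction wrote them with no scaling between arrays. The columns used were the background-subtracted total signal per miRNA and per probe, their errors, and the detection marks of spots. The authors' processed values were deposited as log2 of the signal, scaled per array. Groups and experiment numbers came from the sample labels, and experiment was used as a block because the study compared the substates in pairs. The 2 arrays of an experiment deviated together from the substate means with correlations of 0.674, 0.0307 and 0.517.

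Human rows that were not controls were kept (2549 miRNAs, 5893 probes, 50980 spots per array). Total signals were divided by the 99th percentile of the array, floored and log2-transformed, and the substates were compared for 474 miRNAs by lmFit and eBayes of limma 3.58.1 under R 4.3.3 (two-sided), a method first tested on simulated data. The 9 entries, which are all named, and the lists were chosen with earlier results of these data known. The 5 most similar miRNAs were those with the highest Pearson correlation with the mean of the entries. Alternatives covered scaling, background correction, floor, detection filter, fit, test, slide and each experiment left out. One, the share without miR-8069, was added after the values were seen. hsa-miR-4454 was not analysed here. The number of arrays limits the precision.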

Additional observations from a re-analysis of the deposited data

How the results depend on the processing

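None of the 9 entries was called under any of the 16 alternatives for the test. miR-7975 and miR-7977 were lower in substate 2 under all 17 alternatives for the difference, from −1.08 to −0.26 and from −1.11 to −0.32, with adjusted p between 0.0963 and 0.584 and between 0.0885 and 0.607 in limma or the methods' paired test. The other 7 entries turned direction under at least 1 alternative, from a difference that had not passed the test. With the 9 entries left out of the percentile, miR-1246 and miR-1290 came to 0.0147 and 0.0169, and with quantile normalization to 0.25 and 0.15. Without scaling, miR-4286, miR-5100 and miR-7641 came to −0.24, −0.45 and −0.42, where the median of all tested miRNAs lay at −0.51. With normexp, miR-1260a and miR-1260b came to 0.0601 and 0.0839. In experiment 1 alone, miR-4286, miR-5100 and miR-7641 were at −0.25, −0.25 and −0.72. With the experiments left out in turn (without replicate 1, 2 or 3), the differences ran from −0.60 to 0.35 for miR-1246, −0.43 to 0.15 for miR-1290, −0.67 to 0.57 for miR-7641, −0.52 to −0.0974 for miR-1260a, −0.43 to 0.11 for miR-1260b, −0.0924 to 0.60 for miR-4286 and −0.20 to 0.29 for miR-5100. The cause of these turns was not tested. The median of the entries moved to 0.15 with quantile normalization, to −0.64 without scaling and to −0.38 in experiment 1 alone. Over all tested miRNAs the calls rose from 0 to 7 (5 higher, 2 lower) with detection on all 6 arrays required, which leaves 289 to test, and to 1 without the pairing of arrays by experiment as a block, and were 0 otherwise. The block changed no call among the 9 entries. The mean difference in share ran from −4.58 percentage points without replicate 2 to 2.89 without replicate 1 over the 9 alternatives. It was below 0 under 6 of them. Besides the run without replicate 1, it turned above 0 without replicate 3 (0.0866) and without the brightest of the 9 entries (0.0555). The dim probes of miR-1260a and miR-1260b had at most 1 spot well above background on any array of experiments 2 and 3. There miR-1260a rests on its brighter probe alone. So does miR-1260b, except in substate 1 of experiment 2, where its dim probe entered the total. This limits what these entries can show. The brighter probes had all spots well above background and carried at least 90.4% of the signal of miR-1260a and 89.5% of that of miR-1260b.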
